A study of Mus musculus with 6 samples.

Results

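The genes described here carry the nuclear-encoded parts of the mitochondrial respiratory chain. They were taken by name, as rows of the deposited gene count table whose symbol starts with Nduf, Cox and a digit, Atp5, Uqcr or Sdha to Sdhd, with a mean of at least 50 counts over the 6 libraries. The name pattern matched 103 rows and the count minimum kept 100 of them, out of 23420 rows in the table. By role, 78 of the 100 genes encode subunits and 18 encode assembly factors, so the set is wider than the subunits alone. The other 4 (Atp5s, Atp5sl, Cox7a2l and Ndufa4l2) have another or a less settled role. By complex, 43 genes belonged to complex I, 6 to complex II, 8 to complex III, 27 to complex IV and 16 to complex V. The placement did not always follow the name: Ndufa4 and Ndufa4l2 were counted in complex IV and Atp5sl in complex I. Just inside the count minimum were Cox7b2 with a mean of 71.0 counts and Ndufa4l2 with 75.5. Just outside it were Cox8b with 21.2, Ndufs5 with 1.17 and Cox8c with 0.

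The respiratory chain passes electrons from NADH (complex I) and succinate (complex II) through complex III and cytochrome c to oxygen at complex IV, cytochrome c oxidase, and pumps protons across the inner mitochondrial membrane. Complex V, the ATP synthase, lets the protons return and makes ATP. Purkinje neurons, the output cells of the cerebellar cortex, fire spontaneously and have a high demand for ATP. Most subunits are encoded in the nucleus, while a core set is encoded by mitochondrial DNA. Assembly factors insert cofactors such as copper and haem, or hold partly built complexes, and do not stay in the finished enzyme.

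The mice were C57BL/6 animals aged 4 weeks. RNA on tagged ribosomes was pulled down from their cerebella by BacTRAP: a transgene under the Pcp2 promoter labels the ribosomes of Purkinje neurons for immunoprecipitation. The 3 control libraries came from Pcp2-BacTrap; Rbm17 f/+ mice, with 1 floxed and 1 wild-type allele and no Cre. The 3 cKO libraries came from Pcp2-BacTRAP; Pcp2-Cre; Rbm17 f/- mice, with 1 floxed allele, 1 null allele and a Cre that is also driven by the Pcp2 promoter. All animals thus carried the ribosome tag and a floxed Rbm17 allele, while Cre and the null allele came together in the cKO and cannot be told apart. Each immunoprecipitation used 1 cerebellum, and the series' design names 3 animals per genotype. Rbm17 encodes a spliceosome-associated RNA-binding protein, and the title of the series names cryptic splicing on its loss as the question.

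Rbm17 itself was at 41.2, 42.5 and 41.3 CPM (counts per 1000000 counts of the scaled library) in the control libraries and at 25.7, 25.6 and 26.3 CPM in the cKO libraries, a log2 fold change of -0.69 (SE 0.09, adjusted p = 0.0016, edgeR's quasi-likelihood test with Benjamini-Hochberg adjustment). Library totals ran from 140110897 to 160571518 counts, of which the ribosomal RNA precursor took 9.56 to 13.5%. None of the Purkinje cell markers was at 0. Their summed level was 31248 to 41804 CPM in control and 18931 to 21874 CPM in cKO, and 7 of 12 fell, with a median log2 fold change of -0.58 over the 12. Among them Pcp2, whose promoter drives the tag, went from 1052 ± 42.9 to 399 ± 73.6 CPM (SD, n = 3). Of 12 microglial markers 6 rose, and their sum went from 42.8 to 66.5 CPM in control to 89.9 to 153.5 CPM in cKO. The granule cell markers summed to 2584 to 3982 CPM in control and 2200 to 3954 CPM in cKO, with 0 of 6 called (none at an unadjusted p under 0.05 by edgeR, and 0 by DESeq2). Of 8 astrocyte and Bergmann glia markers 1 rose and 1 fell by edgeR, beside 4.03% and 3.85% of all genes tested. DESeq2 called 4 of the 8. At an unadjusted p under 0.05 by edgeR 1 was higher and 4 were lower, and the median log2 fold change was -0.34. Their sum was 4462 to 5214 CPM in control and 3497 to 4050 CPM in cKO. No oligodendrocyte (of 6), endothelial (of 4) or interneuron marker (of 5) was called by edgeR or DESeq2, with 1 of the oligodendrocyte markers at an unadjusted p under 0.05. These marker changes accompany every comparison of genotypes given here, and their part in it was not tested. In such bulk libraries fewer cells of a type and less RNA per cell cannot be told apart. The p-values measure the spread between these 3 animals per group.

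Taken as a sum, the respiratory chain genes made up a similar part of the ribosome-bound RNA in both genotypes. Their summed level was 19387, 18247 and 17458 CPM in the control libraries and 18411, 17386 and 18148 CPM in the cKO libraries. The groups overlapped. The median log2 fold change over the 100 genes was 0.02, beside 0.01 over all 16067 genes tested, and 69 of the 100 lay within 0.25 of 0 on the log2 scale, beside 56.4% of all genes. All 100 passed the filter on low counts. In the test over all genes, 11 members were called at an adjusted p under 0.05, 4 higher and 7 lower in cKO. Over all genes the share called was 7.87%, with 4.03% higher and 3.85% lower.

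Small shifts in both directions were common within that balance. In 50 of the 100 genes the 3 cKO values lay wholly above (26 genes) or wholly below (24 genes) the 3 control values, beside 28.4% of all genes tested. The members are abundant and were measured with a median standard error of 0.09 on the log2 scale, beside 0.16 over all genes. At an unadjusted p under 0.05 by the same test there were 16 genes higher and 19 lower. By role the directions differed. Of the 78 subunit genes 47 lay above 0, with a median of 0.05. Of the 18 assembly factor genes 14 lay below 0, with a median of -0.20. These counts and medians describe the lists and are no test between them.

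**Figure D1:**
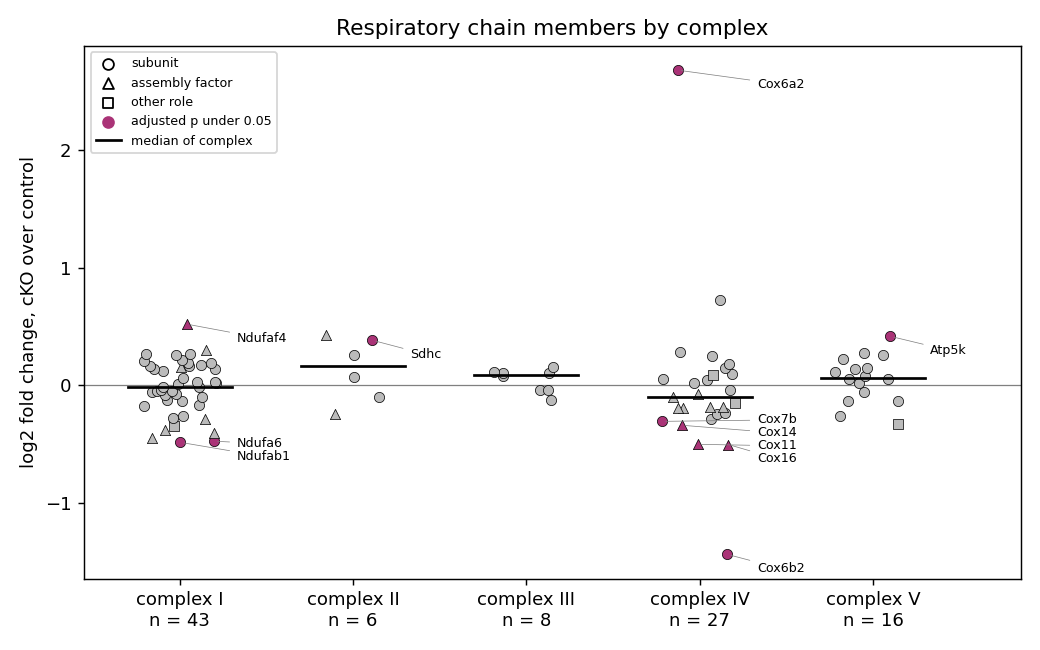
Log2 fold change of cKO over control (vertical axis) for each of the 100 members, placed by complex, with the shape giving the role, the colour marking an adjusted p under 0.05 and a black line at the median of each complex. Cox6a2 at 2.68 and Cox6b2 at -1.44, both in complex IV, stand far from the other points, and the 9 assembly factors of complex IV all lie below 0.

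The levels themselves spanned more than 3 orders of magnitude once divided by transcript length. Atp5b, the catalytic beta subunit of the ATP synthase, was the highest member at 2480 CPM per kilobase of transcript in control. The highest members of the other complexes were Cox6a1 in complex IV at 804, Uqcrh in complex III at 512, Ndufb8 in complex I at 207 and Sdhd in complex II at 153 CPM per kilobase. The lowest were Ndufa4l2 at 0.57, Cox7b2 at 0.66 and Cox6a2 at 0.73 CPM per kilobase. As summed CPM without division by length, complex V held 8436 to 9786 CPM in the control libraries, complex I 3563 to 3777, complex IV 3352 to 3459, complex III 1286 to 1414 and complex II 821 to 951.

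**Figure D2:**
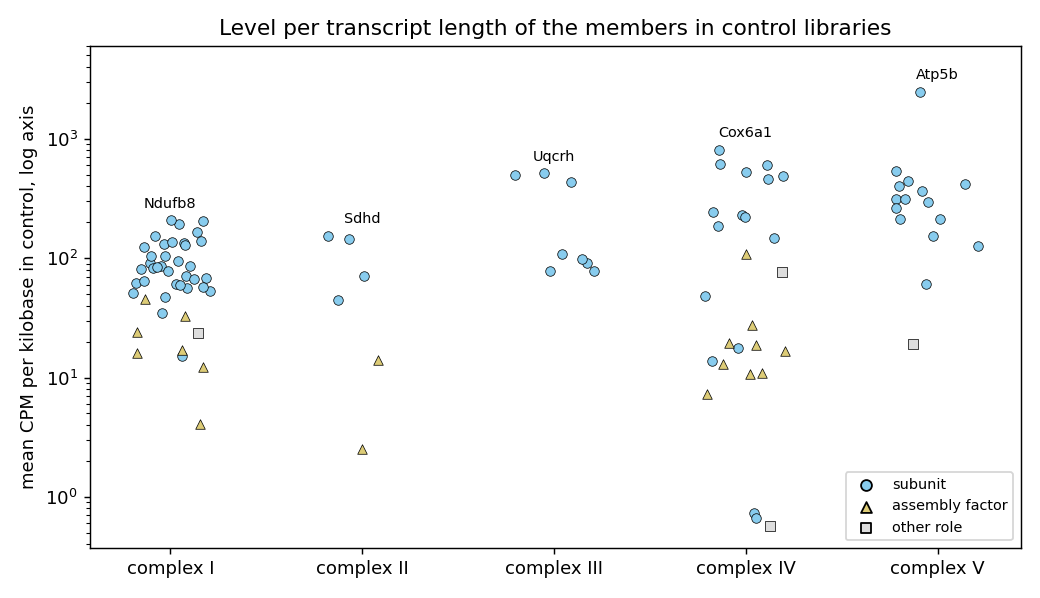
Mean control level in CPM per kilobase of principal transcript (vertical log axis) of the 100 members by complex, with shape and colour giving the role and the highest member of each complex named. Assembly factors lie mostly below the subunits of the same complex, and 3 complex IV genes lie near or under 1 CPM per kilobase.

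Complex I, NADH dehydrogenase, takes electrons from NADH through a flavin and a chain of iron-sulphur clusters. Its summed level was 3777, 3624 and 3563 CPM in control and 3579, 3584 and 3688 CPM in cKO, and the groups overlapped. Of its 43 genes 1 rose and 2 fell, with a median log2 fold change of -0.01. That is 6.98% called, beside 7.87% of all genes tested. The called genes were 2 accessory subunits and 1 assembly factor.

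Ndufab1 fell. It encodes the mitochondrial acyl carrier protein, which is both a complex I subunit and a carrier in mitochondrial fatty acid synthesis and iron-sulphur cluster assembly. Its levels were 182, 156 and 152 CPM in control and 121, 113 and 116 CPM in cKO. Every cKO value lay under every control value, and the log2 fold change was -0.49 (SE 0.10, edgeR adjusted p = 0.013). Ndufa6, an accessory subunit of the LYR protein family to which an acyl carrier protein binds, also fell. Its levels were 67.8, 58.3 and 58.8 CPM in control and 38.8, 46.7 and 47.3 CPM in cKO. The log2 fold change was -0.48 (SE 0.11, edgeR adjusted p = 0.027).

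Ndufaf4, an assembly factor that acts on an early intermediate of complex I, rose. It stood at 47.0, 40.6 and 45.02 CPM in control and at 68.9, 61.5 and 59.6 CPM in cKO. The lowest cKO library was above the highest control library, and the log2 fold change was 0.52 (SE 0.10, edgeR adjusted p = 0.011). The other 6 complex I assembly factors were not called. Of all 7, 4 had cKO values wholly below control and 2 had them wholly above, beside 28.4% of all genes tested in either direction. Among the genes that were not called, Ndufs6, a zinc-binding accessory subunit, had the smallest p on the upper side, with 44.0 ± 0.93 CPM in control and 52.9 ± 1.05 in cKO (SD, n = 3, edgeR adjusted p = 0.086).

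Complex II, succinate dehydrogenase, has 4 subunits, all encoded in the nucleus, and also works in the tricarboxylic acid cycle. Of the 6 complex II genes in the set 1 rose and 0 fell (16.7% called, beside 7.87% of all genes tested). The median log2 fold change was 0.16. The sum was 951, 860 and 821 CPM in control and 975, 876 and 932 CPM in cKO, which overlapped. Sdhc, which with Sdhd anchors the enzyme in the membrane, rose from 143, 144 and 139 CPM in control to 178, 188 and 188 CPM in cKO. The groups were apart, and the log2 fold change was 0.38 (SE 0.08, edgeR adjusted p = 0.018). The partner anchor Sdhd stood at 201, 194 and 171 CPM in control and 234, 215 and 228 CPM in cKO. Its cKO values were all above control, but it was not called (log2 fold change 0.26, edgeR adjusted p = 0.13). Sdha, the flavin subunit, overlapped between groups, with 418 ± 54.8 CPM in control and 389.9 ± 41.8 in cKO. The assembly factor Sdhaf2, which helps to attach the flavin, stood at 41.5 ± 4.11 CPM in control and 35.1 ± 1.70 CPM in cKO (edgeR adjusted p = 0.20). The other of the 2 complex II assembly factors went the other way, with a log2 fold change of 0.43. Its cKO values lay wholly above control, but it was not called.

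Complex III, the cytochrome bc1 complex, had no called gene among its 8 by edgeR, 0 by DESeq2, and none at an unadjusted p under 0.05. All 8 lay within 0.25 of 0 on the log2 scale. The sum was 1414, 1313 and 1286 CPM in control and 1356, 1374 and 1416 CPM in cKO. The extremes were Uqcr11, a small accessory subunit, at a log2 fold change of 0.16 and Uqcrfs1, the Rieske iron-sulphur protein, at -0.13. Uqcrh, the hinge subunit near cytochrome c, was at 280.1 ± 17.7 CPM in control and 303 ± 5.31 CPM in cKO. Uqcrc1, a core protein of the matrix side, was at 149.5 ± 2.62 and 145.5 ± 5.33 CPM.

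Complex IV had the most calls, with 1 gene higher and 5 lower among 27 (22.2%, beside 7.87% of all genes tested). Its summed level still overlapped, with 3459, 3458 and 3352 CPM in control and 3286, 3359 and 3444 CPM in cKO. Both outermost members were isoforms of small subunits that in mammals have more than 1 gene.

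Cox6b2 fell the most of all members. It encodes the isoform of subunit 6b known from testis, on chr7:4751792-4753094 (minus strand, mm10). Its level was 28.7, 28.98 and 27.0 CPM in control and 8.39, 11.7 and 11.1 CPM in cKO. The groups were far apart, a 2.72-fold lower level with a log2 fold change of -1.44 (SE 0.14, edgeR adjusted p = 3.9e-04). Reads over its annotated splice junctions, from the same libraries, went from 69.1 ± 2.32 to 26.1 ± 3.96 RPM, reads per 1000000 junction reads of the library (SD, n = 3). The widely expressed isoform Cox6b1 stood at 154, 157 and 145 CPM in control and 154, 163 and 169 CPM in cKO, which overlapped. Per kilobase of transcript, Cox6b1 was at 246 and Cox6b2 at 48.3 CPM in control.

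Cox6a2, the isoform of subunit 6a known from heart and skeletal muscle, was low in control and rose in cKO. Its levels were 0.81, 0.39 and 0.28 CPM in control and 4.78, 1.75 and 2.96 CPM in cKO. No values overlapped, and the log2 fold change was 2.68 (SE 0.49, edgeR adjusted p = 0.0097). The gene lies at chr7:128205435-128206387 on the minus strand inside Itgad, an integrin gene on the opposite strand, and the library kit as described in the labels does not mark strand. Itgad was at 0.17 ± 0.14 CPM in control and 0.28 ± 0.17 in cKO (edgeR adjusted p = 0.76). Reads over the annotated introns of Cox6a2 were 88, 53 and 31 in the control libraries and 662, 204 and 397 in the cKO libraries. The widely expressed Cox6a1 remained far more abundant, with 458.9 ± 18.1 CPM in control and 472 ± 12.9 in cKO.

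None of the other listed isoform genes (Cox4i1, Cox4i2, Cox7a1, Cox7a2, Cox8a, Cox8b and Cox8c) was called. Cox4i1 was at 350.4 ± 22.8 CPM in control and 355 ± 7.14 in cKO, and the oxygen-regulated isoform Cox4i2 was at 12.9 ± 3.09 and 10.6 ± 2.63 CPM. Cox7a2 was at 151 ± 7.52 and 179 ± 2.31 CPM, apart in all libraries but not called (edgeR adjusted p = 0.11), while the muscle isoform Cox7a1 was at 5.44 ± 0.64 and 6.15 ± 1.42 CPM. Cox8a was at 269 ± 12.8 and 260.5 ± 29.5 CPM, Cox8b was at 0.12 ± 0.072 and 0.16 ± 0.090 CPM, and Cox8c had no count. Cox5b, which binds zinc, had the smallest p on the upper side after Cox6a2, with 151, 166 and 169 CPM in control and 189, 193 and 208 CPM in cKO (edgeR adjusted p = 0.085). Cox7b, a small accessory subunit encoded on the X chromosome, fell from 234, 212 and 216 CPM to 176, 181 and 177 CPM, a log2 fold change of -0.31 (SE 0.08, edgeR adjusted p = 0.047).

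The 9 assembly factors of complex IV in the set (Cox10, Cox11, Cox14, Cox15, Cox16, Cox17, Cox18, Cox19 and Cox20) all had a log2 fold change below 0, with a median of -0.20. Their sum was 387, 359 and 365 CPM in control and 293, 317 and 322 CPM in cKO, and did not overlap. In 6 of the 9 the cKO values lay wholly under control, and 3 of the 9 fell. Of all genes tested 28.4% did not overlap between groups in either direction and 3.85% were called lower. Outside the name pattern, the called assembly factors of complex IV went both ways. Log2 fold changes were 0.37 for Surf1, 0.46 for Coa5 and -0.51 for Coa3. Cox16, which works in the maturation of subunits 1 and 2, went from 27.0, 23.95 and 27.4 to 17.2, 17.3 and 20.6 CPM, with a log2 fold change of -0.51 (SE 0.12, edgeR adjusted p = 0.028). It shares its span with a read-through gene on the same strand, Gm20498. Its annotated junction reads went from 74.6 ± 4.73 to 51.9 ± 3.13 RPM.

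Cox11, which brings copper to subunit 1, went from 23.8, 20.8 and 24.7 to 13.7, 17.0 and 18.1 CPM. The log2 fold change was -0.50 (SE 0.13, edgeR adjusted p = 0.046). Cox11 overlaps Tom1l1, on the opposite strand, which stood at 11.1 ± 2.12 CPM in control and 8.01 ± 1.77 in cKO (edgeR adjusted p = 0.19). Cox14, which regulates the translation and early assembly of subunit 1, went from 83.3, 77.6 and 74.95 to 57.6, 64.2 and 64.2 CPM, with a log2 fold change of -0.34 (SE 0.09, edgeR adjusted p = 0.047). Cox17, the copper chaperone that supplies Cox11, was wholly lower in cKO but not called, with 40.5 ± 1.99 and 35.3 ± 0.95 CPM (edgeR adjusted p = 0.23).

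Complex V had 1 called gene among 16 (6.25%, beside 7.87% of all genes tested). The sum was 9786, 8992 and 8436 CPM in control and 9214, 8192 and 8668 CPM in cKO, which overlapped, and Atp5b alone gave 4751 ± 445 and 4312 ± 361 CPM of it. Atp5k, subunit e of the membrane part, which lies at the interface of ATP synthase dimers, rose from 81.8, 77.3 and 78.4 CPM to 108, 100.3 and 109 CPM. The groups were apart and the log2 fold change was 0.42 (SE 0.08, edgeR adjusted p = 0.015). A list of genes outside the name pattern, with cytochrome c, cytochrome c1 and other subunits, had 5 tested genes. Of these 2 rose and 0 fell, beside 4.03% and 3.85% of all genes tested. The 2 were Usmg5 and 2010107E04Rik, small membrane-part subunits of ATP synthase, with log2 fold changes of 0.36 and 0.44 (edgeR adjusted p = 0.031 and 0.011). Of the 10 membrane-part and stalk genes 8 lay above 0 with a median log2 fold change of 0.12, while the 5 genes of the catalytic F1 part had a median of 0.02.

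Within the F1 part the members pointed both ways. Atp5d, the delta subunit, stood at 620.3, 573 and 571 CPM in control and 462, 485 and 523 CPM in cKO. Atp5e, the epsilon subunit that sits beside it in the rotor, stood at 138, 132 and 121 CPM in control and 152, 163 and 159 CPM in cKO. Neither pair of groups overlapped and neither gene was called, with log2 fold changes of -0.26 and 0.27 (edgeR adjusted p = 0.10 and 0.089). The 3 genes for the same ring subunit c also split, with Atp5g1 at 599.7 ± 40.9 and 545 ± 12.4 CPM, Atp5g2 at 112 ± 2.26 and 124 ± 4.39 CPM, and Atp5g3 at 263 ± 17.0 and 291 ± 22.9 CPM, and none was called. Atp5s, whose role is less settled, was at 30.8 ± 1.86 and 24.4 ± 2.36 CPM (edgeR adjusted p = 0.10).

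**Figure D3:**
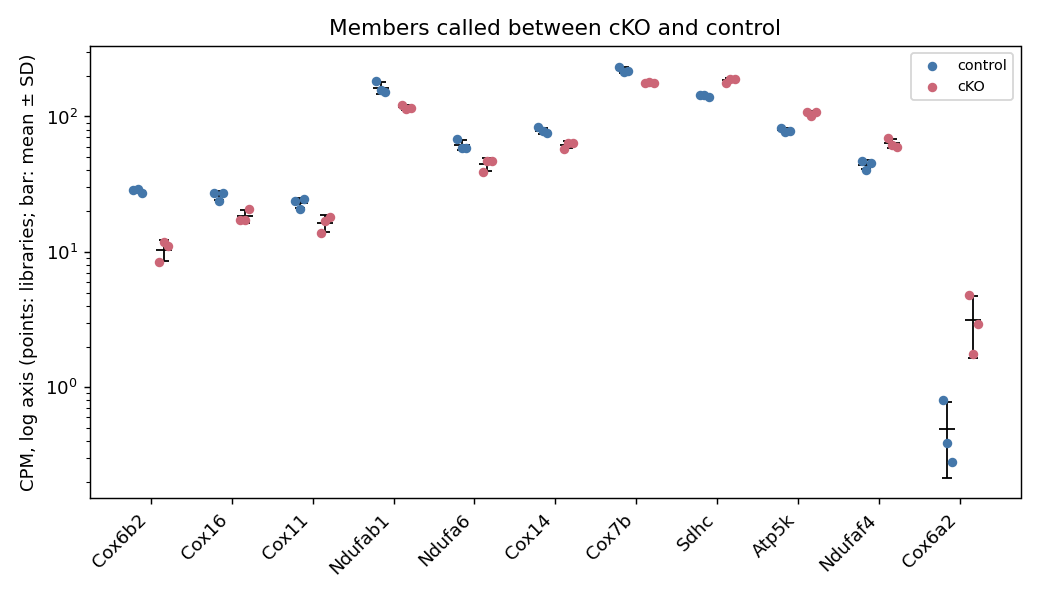
CPM on a log axis in each of the 6 libraries for the 11 called members, ordered from the lowest to the highest log2 fold change, with points for libraries and bars for the mean and SD of 3 libraries per group. In all 11 genes the 3 control points and the 3 cKO points are apart, by the widest margins in Cox6b2 and Cox6a2.

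The calls differed in how far they lasted when 1 library was left out. Cox6b2 was called in all 6 such fits, and Cox6a2 and Ndufaf4 were lost only without control replicate 2. Ndufab1 kept its call in 4 fits, Atp5k in 3, Sdhc in 2, and Ndufa6 and Cox16 in 1 each. Cox7b, Cox11 and Cox14 lost theirs in every one. The count of called members was 11 with all libraries and 2 to 7 with 1 left out, the lowest without control replicate 2. In all 11 called genes the level of annotated junction reads moved in the same direction as the gene count. Both come from the same libraries, so the match is no independent support for the calls.

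One subunit gene is missing from the count table in all but name. Ndufs5, a complex I accessory subunit on chr4:123712710-123718202 (minus strand), had at most 3 counts in any library. Reads over its annotated junctions numbered 9705 to 13774 per library. These came to 131, 128 and 135 RPM in control and 170.1, 150.5 and 154 RPM in cKO. All cKO values were above control, with the smallest two-sided p that an exact permutation test of 3 against 3 can give (p = 0.10). On this scale the median log2 ratio was 0.12 over the members and 0.10 over 12036 genes with enough junction reads, while that of Ndufs5 was 0.27.

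The junction lists also showed how the members were spliced. A junction was called when its adjusted p was under 0.05 and its share of the linked junctions, those joined by a common splice site, changed by at least 5 percentage points. By this rule 7 of 921 member junctions were called, in 5 of 93 genes with testable junctions (Cox11, Cox17, Cox19, Sdhc and Uqcr10). That is 5.38% of the genes, beside 4.93% of all genes tested, and 0.76% of the junctions, beside 0.751%. With the share taken only among junctions that use the same splice site, a choice made after seeing the data, 9 junctions in 7 genes were called (7.53% of genes, beside 7.06% of all genes, and 0.977% of junctions, beside 1.18%). Sdhc then dropped out, and Ndufs4, Cox15 and Cox20 came in. The Sdhc junctions are linked to those of Pcp4l1, which itself fell (log2 fold change -0.89, edgeR adjusted p = 0.0015), and at its own splice site the Sdhc junction held 97.0 ± 3.88% of reads in control and 95.1 ± 3.21% in cKO. By the second rule 5 of the 9 complex IV assembly factors had a called junction, beside 7.06% of all genes tested. These were Cox11, Cox15, Cox17, Cox19 and Cox20. By the first rule only Cox11, Cox17 and Cox19 of this group had one, beside 4.93% of all genes tested.

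The sequences at the sites that changed are shown here because they hold the splice sites and the reading frame the counts refer to. They are GENCODE M21 transcript sequences on GRCm38, read on the strand of the gene. For Cox11 at chr11:90640353-90640382 (plus strand) the capitals are the 12 bases that the upstream acceptor adds to the second exon.
Cox11: taccatatgcagTGTCTGTTGTAGactact
For Cox17 at chr16:38349662-38349691 (plus strand) the capitals are the first 15 bases of the added exon, after the AG of its acceptor.
Cox17: ttgtttctaatatagGTCTGCAGTAGAGTT
For Cox19 at chr5:139339547-139339576 (minus strand) the capitals are the stop codon that the annotated decay transcript meets in the added exon.
Cox19: tggcagtaagagccagcctcggTAGgcctg
For Uqcr10 at chr11:4703904-4704009 (minus strand) the capitals are the added exon of 86 bases, after the last 20 intron bases before it.
Uqcr10: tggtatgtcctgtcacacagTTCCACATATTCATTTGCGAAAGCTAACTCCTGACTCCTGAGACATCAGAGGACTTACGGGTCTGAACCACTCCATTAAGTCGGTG
For Ndufs4 at chr13:114351448-114351526 (minus strand) the capitals are the whole of exon 2, which was left out more often.
Ndufs4: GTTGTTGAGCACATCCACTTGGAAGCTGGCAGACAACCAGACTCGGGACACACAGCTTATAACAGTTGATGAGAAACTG
For Atp5e at chr2:174462590-174462629 (minus strand) the capitals are the 19 bases at the start of exon 2 that the internal acceptor removes.
Atp5e: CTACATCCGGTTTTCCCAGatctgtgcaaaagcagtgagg

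Exon 2 of Ndufs4, an accessory subunit of the NADH module whose loss causes Leigh syndrome, was skipped more often in cKO. Its inclusion was 87.3, 81.1 and 84.1% in control and 58.5, 53.7 and 55.6% in cKO, as a share of inclusion and skipping reads. The groups were wide apart. The skipping junction had 241, 369 and 313 reads in control and 1080, 1092 and 1420 in cKO (adjusted p = 6.8e-09, edgeR's test of junction use with Benjamini-Hochberg adjustment). The exon is 79 bases long, which is not a multiple of 3, and is coding in the main transcript. Ndufs4 was not called in the gene count test, with 116 ± 5.06 CPM in control and 118 ± 9.99 in cKO.

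Cox17 gained an exon of 55 bases in cKO. Its inclusion was 0.099, 0.81 and 0.72% in control and 26.2, 18.1 and 18.2% in cKO (adjusted p = 8.0e-05 for the junction into it, by the same edgeR test). The junction into the exon had 7, 33 and 34 reads in the control libraries and 1086, 650 and 746 in the cKO libraries. The annotated coding sequence ends 7 bases before the donor that splices to this exon, so the added bases lie behind the stop codon. Reads over all its annotated junctions were at 93.6 ± 7.34 RPM in control and 93.2 ± 5.49 in cKO. Both junctions of the added exon are annotated and are in that sum, so it does not give the transcript level. The gene count, given above, was wholly lower in cKO but not called.

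Cox19, a copper-linked factor of the intermembrane space, gained an exon of 112 bases. Inclusion was 1.02, 1.68 and 0.32% in control and 17.7, 12.3 and 14.04% in cKO. The junction out of that exon had 0, 7 and 1 reads in control and 134, 71 and 88 in cKO (edgeR adjusted p = 1.9e-05). GENCODE holds the exon in a transcript marked for nonsense-mediated decay, and the printed sequence shows its stop codon. The gene count of Cox19 overlapped between groups, at 17.7 ± 0.77 and 16.8 ± 1.65 CPM.

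Uqcr10, a small subunit of complex III, already used its added exon in control, and used it more in cKO. Inclusion was 12.3, 11.1 and 13.1% in control and 28.5, 28.1 and 29.9% in cKO. The junction into the exon had 1866, 1699 and 1948 reads in control and 4462, 4410 and 5246 in cKO (edgeR adjusted p = 0.0073). GENCODE lists the exon in transcripts without a coding sequence. The gene count was 218 ± 9.06 CPM in control and 212 ± 13.4 in cKO.

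Cox11 used an acceptor 12 bases upstream of the annotated one. Of the reads at these 2 acceptors 3.36, 1.42 and 4.84% were at the upstream one in control and 28.1, 19.8 and 22.1% in cKO. The reads behind this were 10, 4 and 18 in control and 62, 57 and 68 in cKO (edgeR adjusted p = 0.027). The shift of 12 bases keeps the reading frame of what follows. Read from the 363 coding bases before it, though, the added stretch is 4 codons, and the last of them is the stop codon TAG.

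Cox20, which stabilises subunit 2, and Cox15, a haem A synthase, each gained a junction that passes over an exon and is not in the annotation. The Cox20 junction had 1, 0 and 3 reads in control and 79, 59 and 24 in cKO, or 0.21 ± 0.26% and 8.06 ± 5.02% of reads at its splice site (edgeR adjusted p = 5.3e-04). The Cox15 junction had 0, 0 and 2 reads in control and 41, 59 and 10 in cKO, or 0.14 ± 0.24% and 5.86 ± 3.96% (edgeR adjusted p = 0.0045). With 1 library left out, the called junctions of Cox17 and Cox19 were called in all 6 fits, those of Uqcr10 in 4 and 3, and that of Cox11 in 2. The adjusted p of the Ndufs4 and Cox20 junctions stayed under 0.05 in all 6 and that of Cox15 in 5.

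**Figure D4:**
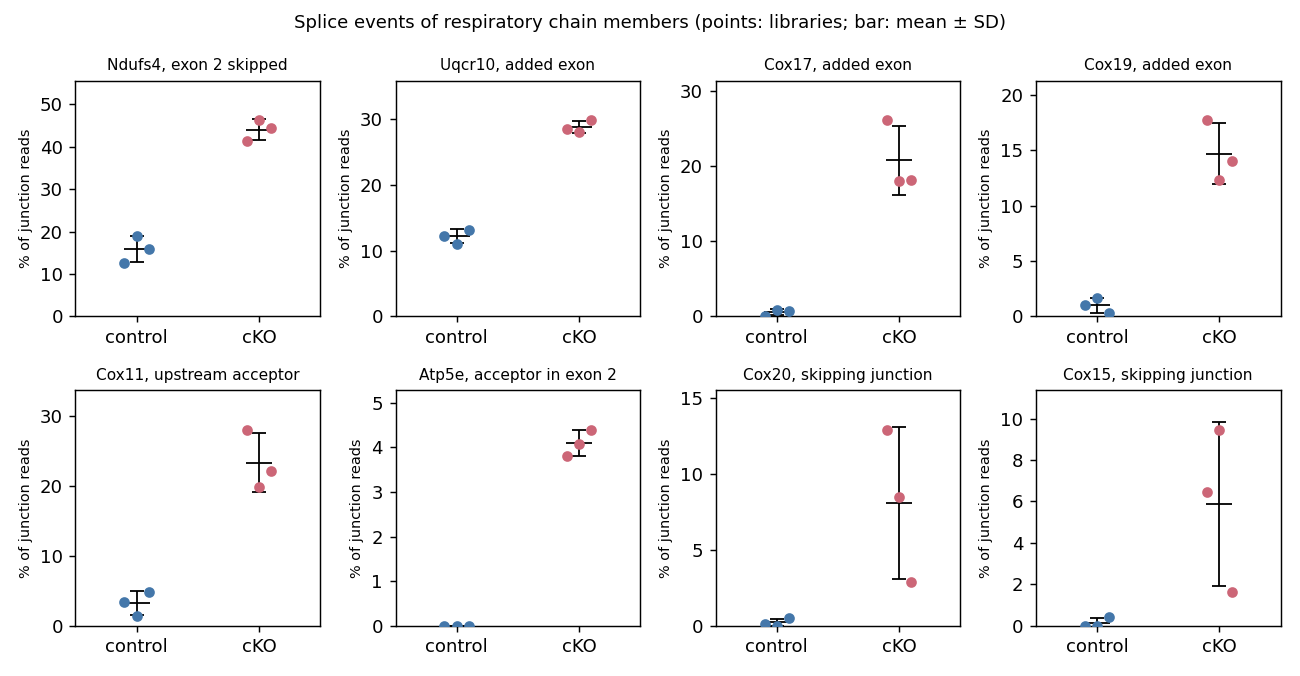
Share of junction reads, in percent, in each of the 6 libraries for 8 splice events of 8 members (points for libraries, bars for mean and SD, each panel with its own axis from 0). In every panel the 3 cKO points lie above the 3 control points, with cKO means from 4.09% in Atp5e to 44.0% in Ndufs4.

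Some junctions were seen in cKO libraries alone. With 0 reads in every control library and at least 10 in each cKO library there were 17 junctions (1.85%, beside 0.814% of all junctions tested) in 12 member genes (Atp5e, Atp5j, Atp5l, Cox14, Ndufa1, Ndufa5, Ndufaf4, Ndufs4, Ndufs7, Ndufv2, Sdha and Uqcrh). That was 12.9% of the member genes, beside 5.4% of all genes tested. The reverse, 0 reads in cKO, was met by 1 junction, in Cox6b2 (1.08% of member genes, beside 0.22% of all, and 0.109% of junctions, beside 0.0339%), a gene whose total also fell. The member genes had a median of 62367 junction reads over the 6 libraries, beside 3666 over all genes tested, and the part of this depth in the count was not tested.

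One of these was in Atp5e. An acceptor 19 bases inside exon 2 had 0 reads in all 3 control libraries and 464, 491 and 566 reads in the cKO libraries, against 8116 to 9029 and 11550 to 12306 reads at the annotated acceptor. That is 3.80, 4.08 and 4.40% of reads in cKO (edgeR adjusted p = 3.4e-13), a loss of 19 coding bases that is not a multiple of 3. In Uqcrh a new exon of 50 bases, absent from the annotation, was included in 0% of reads in control and in 5.14, 2.95 and 3.41% in cKO (edgeR adjusted p = 7.2e-16). Both mean shares in cKO lie under the 5 points asked of a called junction.

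Of 25 tested assembly factors outside the name pattern 2 rose and 2 fell, beside 7.87% of all genes tested called in either direction. Surf1 and Coa5, both of complex IV, rose, while Coa3 and Tmem70 fell. Coa3, the partner of Cox14 in early subunit 1 assembly, went from 52.8 ± 3.52 to 37.0 ± 0.35 CPM (log2 fold change -0.51, edgeR adjusted p = 0.0080). Tmem70, which acts in ATP synthase assembly, went from 103 ± 10.3 to 74.9 ± 7.14 CPM. None of 19 regulators of respiratory chain and mitochondrial DNA transcription was called by edgeR (1 at an unadjusted p under 0.05) or by DESeq2. Ppargc1a, a coactivator of mitochondrial biogenesis, was at 199 ± 32.6 and 191 ± 5.58 CPM.

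Of 17 tricarboxylic acid cycle enzymes 3 fell, beside 3.85% of all genes tested called lower. These were Idh3a and Idh3g, subunits of the NAD-dependent isocitrate dehydrogenase, with log2 fold changes of -0.44 and -0.38, and Sucla2, a subunit of succinyl-CoA ligase, with -0.39 (edgeR adjusted p = 0.0093, 0.022 and 0.030). Of 13 tested genes of the mitochondrial unfolded protein response and mitokines 1 fell and 1 rose, beside 7.87% of all genes called in either direction. Spg7, which encodes a subunit of the mitochondrial m-AAA protease and is mutated in a spastic paraplegia with ataxia, fell from 33.5, 34.6 and 31.9 to 16.3, 16.1 and 19.9 CPM (log2 fold change -0.94, edgeR adjusted p = 0.0013). Gdf15, a secreted stress signal, was at 0.0076, 0.32 and 0.050 CPM in control and rose to 5.22, 1.08 and 1.02 CPM in cKO. Of 14 carriers 1 was called, beside 7.87% of all genes in either direction. It was Ucp1, at 0 CPM in every control library and at 0.61, 0.48 and 0.28 CPM in cKO. The median log2 fold change over the 14 was -0.15. At an unadjusted p under 0.05 by edgeR 2 carriers were higher and 4 lower. Their sum was 3656 to 4109 CPM in control and 3357 to 3536 CPM in cKO. With 1 library left out, Spg7 and Ucp1 were called in all 6 fits, Coa3 and Idh3a in 5, 2010107E04Rik in 4, Idh3g in 3, Usmg5, Tmem70 and Gdf15 in 2, Coa5 and Sucla2 in 1, and Surf1 in 0. None of the 13 subunits encoded by mitochondrial DNA is analysed here.

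RefSeq promoters (250 bases before to 50 after the start, GRCm38.p6) matched 81 of the 100 members by symbol. The palindrome of NRF1, a regulator of respiratory genes (GCGCA followed directly by TGCGC), was in 7 of them (8.64%), beside 0.977% of 27025 promoters. The ETS motif CCGGAAGT, on either strand, was in 8 (9.88%, beside 4.00%), and the YY1 motif AAGATGGC in 11 (13.6%, beside 2.88%). These matches describe the letters in these windows only.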

How the data were processed

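Ribosome-bound RNA of 3 control and 3 cKO animals was measured by RNA-seq from 10 ng of amplified RNA, so reads are not independent molecules. The authors deposited raw counts per gene and, per sample, a list of splice junctions whose score is the count of reads over the junction. TopHat2 2.1.0, HTSeq 0.6.0 and mm10 are named per the submitters' processing notes, and the junction lists come from TopHat per the file headers. For the annotation, the strand setting and multi-mapping reads, the sources used here state nothing, and the library kit does not mark strand per the labels' protocols.

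From these files, genes were tested with edgeR 4.0.16 (R 4.3.3), with its filter on low counts, TMM scaling, the quasi-likelihood test and Benjamini-Hochberg adjustment over all genes. CPM values use the TMM-scaled totals. Junctions seen in 2 or more libraries, with 10 or more reads in total, were tested with edgeR's diffSpliceDGE within linked junctions. Scripts were tested on simulated data. DESeq2 1.42.0, limma 3.58.1 (voom), other scalings and filters and each library left out were alternatives. Levels per kilobase use the longest principal transcript of GENCODE M21. Complexes, roles and 14 other lists of 163 genes were written by hand, of which 150 genes were found in the count table, 6 of them by an older symbol. Members and lists were chosen with earlier results of these data known. Named were called members, in each complex the 2 smallest p-values per direction and the highest level, members with a called junction, complex IV isoforms and ring subunit genes, and up to 3 called genes of each other list. Named outside that rule, after their values were seen, were Ndufs5, Surf1, the genes that overlap or link to a member (Itgad, Tom1l1, Gm20498, Pcp4l1) and, through the second junction rule, Ndufs4, Cox15 and Cox20.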

Additional observations from a re-analysis of the deposited data

How the results depend on the processing

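With all libraries 1265 genes were called (647 higher, 618 lower). DESeq2 called 2042 genes, and leaving out 1 library gave 530 to 1037. The count of called members was 9 to 12 under the other scalings, filters, limma-voom and the block, and 16 with DESeq2, which included all 11. It was 7 for structural subunits only, 17 at an adjusted p under 0.10, and 2 to 7 with 1 library left out. The members' median log2 fold change was 0.0091 to 0.049 under the other alternatives run and -0.032 to 0.023 with 1 library left out. The count of called junctions was 6 to 9 under the other alternatives and 4 to 9 with 1 library left out. Over 70 named genes and 14 alternatives, 880 values kept direction and side of the threshold, 96 kept direction but lost the threshold, 3 gained it (Atp5d, Atp5s and Cox5b with DESeq2) and none reversed.

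The correlations of same-numbered libraries' deviations from the group means were 0.045, -0.062 and 0.021. Those of differently numbered libraries ran from -0.113 to 0.0961. With 3 libraries per group such values cannot show whether same-numbered animals shared a litter or a day, which the labels do not state. With the replicate number as a block 1738 genes, 12 members (11 of them shared with the fit without it) and 7 member junctions were called. Low counts limit Cox6a2, Cox7b2 and Ndufa4l2.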
